A study of Mus musculus with 12 samples.

Results

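The 10 genes studied here mark fat pad adipocytes and were followed in primary mammary epithelial cell preparations: Adipoq, Fabp4, Plin1, Cfd, Lpl, Pparg, Cidec, Car3, Lep and Retn. Every probe set whose platform annotation gives exactly 1 symbol among them was used, which found 15 probe sets for 8 of the 10 genes, out of 45037 probe sets and 18193 named genes on the array. Plin1 and Cfd had no such probe set in the annotation used and were not analysed here. A probe set is the group of short probes that together read 1 transcript, and its value is a MAS5 intensity on a linear scale.

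The 12 arrays each held RNA of 1 preparation from female FVB/N mice, 6 per genotype. The titles name them biological replicates and do not say how many mice each preparation holds. Control mice carried MMTV-rtTA alone. Mice called p190B here carried MMTV-rtTA/TetO-p190B, in which the doxycycline-bound rtTA activator switches on p190B together with luciferase. Mice of both genotypes ate doxycycline chow (2 g/kg) for 7 days from 5 weeks of age, and cells were isolated at 6 weeks. The MMTV promoter is active in the mammary epithelium, so the activator is not aimed at fat cells. The comparison asks which transcripts differ when p190B is induced.

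The mammary epithelium grows through a fat pad, and isolated epithelial fragments can carry cells or RNA of that pad. Adipocytes store triglyceride in a droplet coated by perilipin and CIDEC, take up fatty acids released by lipoprotein lipase, and secrete adiponectin, leptin and resistin under the control of the nuclear receptor PPARγ. Several of these genes are also known outside fat: Fabp4 in capillary endothelium and macrophages, Lpl in macrophages and muscle, Car3 in slow muscle and Pparg in endothelium, while Adipoq, Plin1, Cidec, Lep and Retn mark mouse fat cells more closely. In embryonic cells p190B has been linked to the choice between fat and muscle fates. In bulk RNA, fewer cells of a type and less RNA per cell cannot be told apart, and this holds for each level below.

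Luminal epithelial markers were bright, and markers of other cells were read as well. The mean log2(intensity + 16) over 7 luminal genes was 14.06 to 14.40 on control and 14.15 to 14.41 on p190B arrays. On control arrays it was 12.07 to 12.49 over basal epithelial, 12.42 to 13.06 over fibroblast and fat precursor and 11.89 to 12.57 over endothelial markers. On p190B arrays these ran from 12.13 to 12.52, 12.72 to 13.03 and 12.03 to 12.56. Arrays correlated between 0.957 and 0.987 across tested probe sets. Arhgap5, which encodes p190B, was read by 4 probe sets whose log2 differences ran from −0.32 to 0.41 with 0 past the limma threshold, so this gene does not check the labels. The 3′ over 5′ ratio of Gapdh, a measure of RNA quality on the log2 scale, was −0.49 ± 0.02 on control and −0.40 ± 0.06 on p190B arrays (SD, n = 6 each), and p190B replicates 1 and 3 stood apart in related measures. Their Actb 3′ over 5′ log2 ratios were 0.48 and 0.59, against 0.25 to 0.35 on control arrays, and their 18S signals were 725.0 and 4266, against 233.2 to 433.0. The part of RNA quality in the genotype differences below was not tested beyond the fits with the Gapdh ratio as a covariate and those without these 2 arrays. The Gapdh ratio ran from −0.517 to −0.471 on control and from −0.478 to −0.318 on p190B arrays. The genotypes barely overlapped in it, so a fit with it as a covariate cannot tell the ratio and the genotype apart well. In that fit 0 of 12 tested member probe sets passed limma, and the smallest adjusted p was 0.719. Lymphocyte markers varied most among the marker lists examined, from 7.01 to 10.84 in mean log2(intensity + 16).

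Promoter sequences are shown for 4 of the measured genes, since their signals varied widely between preparations in the different patterns described below. Of the 10 genes, 7 have an entry in the RefSeq promoter table of build GRCm38.p6, which covers 250 bases before to 50 after each annotated start. Adipoq, Cidec and Retn varied with one another, and Pparg gave a higher r with the endothelial gene Cdh5. Capitals mark any match, on either strand, to TTGCNNAA (a C/EBP element), AGGTCA (a nuclear receptor half-site) or CCAAT. Cidec has a second listed start and Pparg has 2 more, and the arrays do not tell which start was used.
Adipoq, plus strand, chr16:23146286-23146585: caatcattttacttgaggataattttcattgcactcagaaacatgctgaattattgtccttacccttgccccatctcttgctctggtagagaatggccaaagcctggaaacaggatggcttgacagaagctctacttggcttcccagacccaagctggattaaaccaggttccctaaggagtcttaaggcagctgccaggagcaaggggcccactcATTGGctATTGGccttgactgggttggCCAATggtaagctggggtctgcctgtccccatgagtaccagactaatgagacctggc
Retn, plus strand, chr8:3655520-3655819: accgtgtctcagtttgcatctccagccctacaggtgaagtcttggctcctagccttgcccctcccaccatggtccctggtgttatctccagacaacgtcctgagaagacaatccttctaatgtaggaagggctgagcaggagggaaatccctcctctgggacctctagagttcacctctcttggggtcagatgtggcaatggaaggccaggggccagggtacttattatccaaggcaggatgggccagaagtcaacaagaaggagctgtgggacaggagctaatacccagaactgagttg
Cidec, minus strand, chr6:113434715-113435014: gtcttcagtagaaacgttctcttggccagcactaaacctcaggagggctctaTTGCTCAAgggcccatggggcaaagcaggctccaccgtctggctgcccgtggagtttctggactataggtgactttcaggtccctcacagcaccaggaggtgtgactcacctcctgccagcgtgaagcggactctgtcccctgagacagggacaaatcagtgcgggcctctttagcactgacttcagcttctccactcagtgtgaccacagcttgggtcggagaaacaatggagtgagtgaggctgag
Pparg, plus strand, chr6:115421816-115422115: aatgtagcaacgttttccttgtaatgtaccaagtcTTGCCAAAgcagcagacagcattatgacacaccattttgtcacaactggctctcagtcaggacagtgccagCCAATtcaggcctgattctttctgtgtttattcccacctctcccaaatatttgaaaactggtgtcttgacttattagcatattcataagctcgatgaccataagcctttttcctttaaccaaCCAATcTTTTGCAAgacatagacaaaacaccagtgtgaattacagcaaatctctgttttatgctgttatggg

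The Adipoq window held 3 CCAAT matches, starting 34, 27 and 7 bases before the start site. The Pparg window held 2 matches to TTGCNNAA and 2 to CCAAT, and the Cidec window 1 to TTGCNNAA. The other Cidec window held no match, and the other Pparg windows held AGGTCA once each and, in one of them, CCAAT. The Retn window held no match to any of the 3 motifs. Of all 32851 promoter windows of the same length, 10.8% held TTGCNNAA, 16.3% AGGTCA and 37.4% CCAAT, so matches of this kind are common.

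Among the secreted products, Adipoq, which encodes the insulin-sensitising hormone adiponectin, was read on every array and differed by 2.87-fold between the lowest and highest preparation. Its intensity ran from 776.7 to 2228 with a median of 1408 on control arrays, and from 969.1 to 2020.3 with a median of 1438 on p190B arrays. All 6 p190B arrays lay inside the control range. Control replicate 6 was the lowest of the 12, and control replicates 5 and 3 and p190B replicate 3 were the highest. The log2 difference, p190B minus control, was −0.08 (95% interval −0.57 to 0.41), with an adjusted p = 0.952 in limma after Benjamini-Hochberg adjustment. The difference turned slightly positive without control replicate 3 or 5 or without p190B replicate 4, at 0.015, 0.040 and 0.019, and was −0.26 without control replicate 6. Adjusting for the Gapdh ratio gave −0.40, and leaving out p190B replicates 1 and 3 gave −0.24.

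Retn encodes resistin, a small hormone made in mice by fat cells. Its intensity ran from 337.2 to 687.2 on control arrays (median 456.9) and from 306.0 to 555.9 on p190B arrays (median 420.1). Control replicate 5 again gave the highest value, and 1 p190B array lay just below all controls. The log2 difference was −0.14 (95% interval −0.53 to 0.25, limma adjusted p = 0.873). It was −0.03 without control replicate 5, −0.23 without control replicate 4 and −0.41 after adjusting for the Gapdh ratio. Leaving out p190B replicates 1 and 3 gave −0.32.

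Lep, which encodes the satiety hormone leptin, was near the bottom of the scale. Its probe set read 4.5 to 97.9 on control arrays (median 28.6) and 4.4 to 76.3 on p190B arrays (median 40.8). All 12 values lay under the level of about 101 intensity units used as the filter, so it was not tested, and its log2 difference of 0.19 is given as a value only. Dropping 1 array moved it between −0.03 (without control replicate 3) and 0.47 (without control replicate 5). The highest Lep value stood on control replicate 5, as for Adipoq and Retn. Control replicate 3, also among the highest for Adipoq, read only 4.5 for Lep.

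Cidec and Lpl serve the handling of triglyceride. Cidec, a protein of the droplet surface that lets droplets fuse, ran from 93.3 to 318.3 on control arrays (median 151.9) and from 71.0 to 245.9 on p190B arrays (median 124.7). The highest values belonged to control replicates 3 and 5 and p190B replicate 3, the arrays that were also highest for Adipoq. Its log2 difference was −0.30 (95% interval −0.97 to 0.37, limma adjusted p = 0.825). Adjusting for the Gapdh ratio, which barely overlapped between genotypes, gave −1.12 (limma adjusted p = 0.719). The difference was −0.12 without control replicate 3, −0.47 without p190B replicate 3 and −0.59 without p190B replicates 1 and 3. With values from 71.0 to 318.3, Cidec lay close to the filter level of 101 units.

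Lpl, the lipase that frees fatty acids from circulating lipoproteins, gave the member difference with the smallest p. The brighter probe set, 1415904_at, ran from 10591 to 16909 on control arrays (median 15327) and from 15944 to 20756 on p190B arrays (median 19265). Of the 6 p190B arrays, 5 lay above every control array, and p190B replicate 4 lay inside the control range. The mean was 18805 ± 1734 in p190B against 14769 ± 2361 in control (SD, n = 6 each), a ratio of 1.28 on the log2(intensity + 16) scale. The log2 difference was 0.36 (SE 0.10, 95% interval 0.14 to 0.58). It did not pass over all tested probe sets, with a limma adjusted p = 0.288. Dropping 1 array at a time kept it between 0.27 and 0.41, and adjusting for the Gapdh ratio gave 0.38.

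The second Lpl probe set, 1431056_a_at, did not show this. Its mean was 5055 ± 1223 for control arrays and 5081 ± 795 for p190B arrays (SD, n = 6 each), with all p190B arrays inside the control range. The log2 difference was 0.04 (95% interval −0.33 to 0.41, limma adjusted p = 0.974). Which part of the Lpl transcript each probe set reads was not examined.

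Fabp4, the cytosolic fatty acid carrier of adipocytes and capillary endothelium, was read by 4 probe sets that differed in how much they varied. The brightest, 1417023_a_at, spanned only 1.26-fold over the 12 arrays, from 41678 to 52718, and ranked between 6 and 84 from the top of each array. Probe set 1451263_a_at spanned 1.52-fold, 1425809_at 2.28-fold and 1424155_at 2.72-fold. On 1424155_at the control arrays ran from 1426 to 3874 (median 2717) and the p190B arrays from 1563 to 3029 (median 2097). Control replicates 4 and 1 were its highest arrays, unlike those of Adipoq. The log2 differences were −0.03, −0.04, −0.20 and −0.23 in that order of span, with limma adjusted p from 0.789 to 0.951. The sign of the brightest turned without control replicate 3 or p190B replicate 1 (0.005 each) and the difference was 0.052 with the Gapdh ratio as a covariate.

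Pparg, the receptor that drives fat cell differentiation, ran from 505.0 to 1649.8 on control arrays (median 1187) and from 467.8 to 1228 on p190B arrays (median 949.2). Control replicate 6 and p190B replicate 1 were low, and control replicates 5 and 4 were high. Its log2 difference was −0.25 (95% interval −0.85 to 0.35, limma adjusted p = 0.842), while adjusting for the Gapdh ratio gave 0.026. It was −0.07 without p190B replicate 1, −0.46 without control replicate 6 and −0.12 without p190B replicates 1 and 3.

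Car3, a carbonic anhydrase abundant in fat and slow muscle, gave 2 bright and 2 dim probe sets. The brightest, 1449434_at, ran from 10008 to 24987 on control arrays (median 17954) and from 11656 to 18651 on p190B arrays (median 15043). All p190B values lay inside the control range, and control replicates 5 and 3 were the highest arrays and control replicate 6 the lowest. Its log2 difference was −0.25 (95% interval −0.64 to 0.14, limma adjusted p = 0.725). It was −0.15 without control replicate 5, −0.42 without control replicate 6 and −0.44 after adjusting for the Gapdh ratio. Probe set 1460256_at had the same highest and lowest arrays, 6719 and 1779, and a log2 difference of −0.05 (95% interval −0.58 to 0.47). The other pair, 1430584_s_at and 1453588_at, stayed at or below 106.6 and 27.3 and were not tested.

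**Figure D1:**
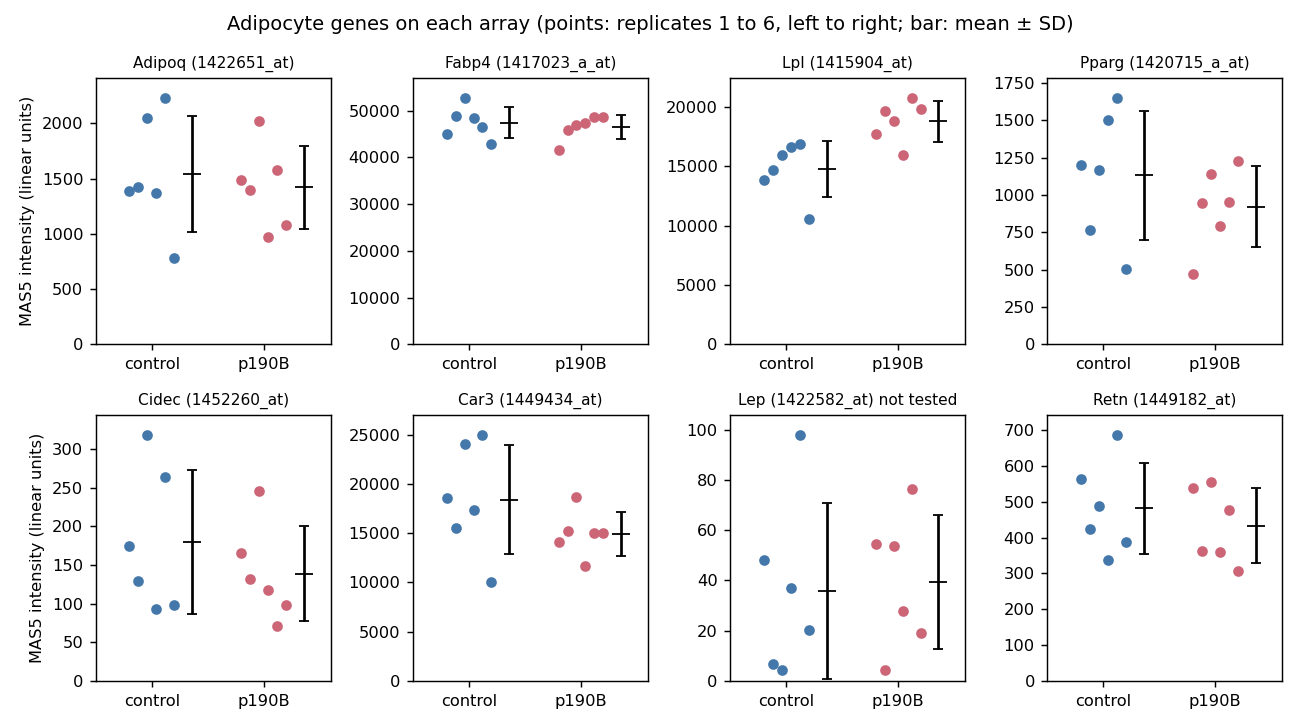
MAS5 intensity (linear units) of the brightest probe set of each of the 8 measured genes, 1 point per array in replicate order, with the mean ± SD of each genotype as a bar. Lpl has 5 of 6 p190B arrays above all control arrays, and Adipoq and Car3 have all p190B arrays inside the control range.

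Across the members, the genotypes were not separated. Of the 15 probe sets, 12 for 7 genes passed the filter on low values, and 0 of these 12 passed a limma adjusted p of 0.05, where 0.037% of the 27022 tested probe sets did (10), and 0.0037% did with a higher level in p190B. Only Lpl 1415904_at reached an unadjusted p under 0.05, 1 of 12, against 9.32% of all tested probe sets. The count past the adjusted threshold was also 0 in each of the 23 other limma fits. Of the 12, 10 had a lower mean in p190B and 2, both of Lpl, a higher one, while 45.1% of all tested probe sets were lower. The median log2 difference was −0.11 over the 12 and 0.02 over all tested probe sets. Probe sets of 1 gene and genes of 1 cell type vary together, so these are not independent observations.

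Read by 1 probe set per gene, the mean log2(intensity + 16) over the 8 measured genes was 10.74 ± 0.38 for control arrays and 10.67 ± 0.22 for p190B arrays (SD, n = 6 each). The difference of −0.06 was smaller than either SD. Dropping control replicate 6 gave −0.18, and dropping control replicate 5 gave 0.05. Over Adipoq, Cidec, Lep and Retn, the measured genes that mark fat cells more closely, it was −0.08. With the Gapdh ratio as a covariate the difference over all 8 measured genes was −0.20, and without p190B replicates 1 and 3 it was −0.16. No difference between genotypes in the adipocyte signal was detected, and the intervals of Cidec and Pparg reached down to log2 differences of −0.97 and −0.85.

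**Figure D2:**
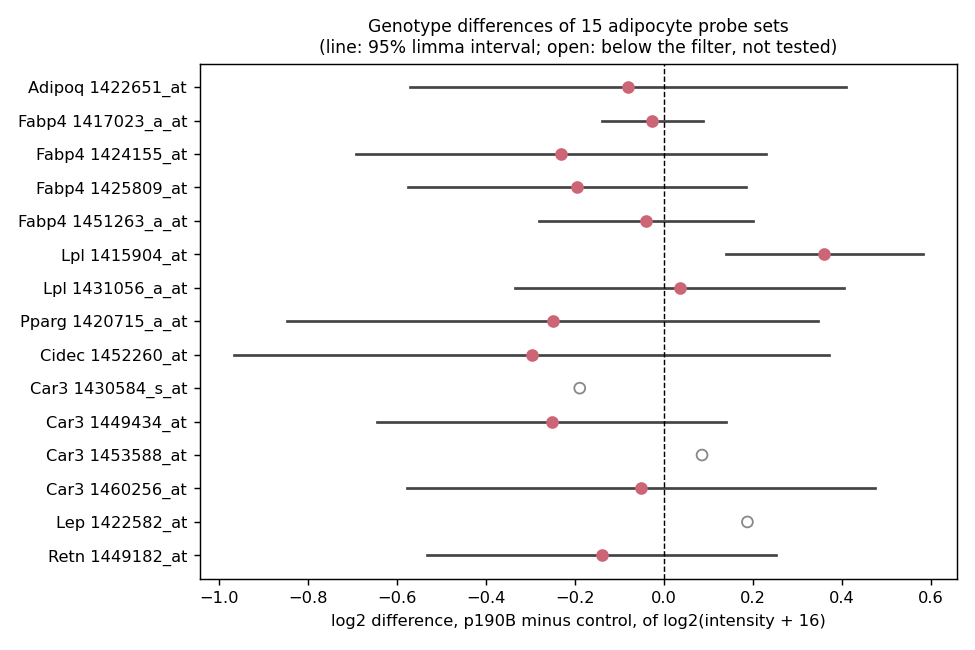
Log2 difference, p190B minus control, of log2(intensity + 16) for the 15 member probe sets. Points with lines are tested probe sets with 95% limma intervals, and open points lay below the filter; the interval of Lpl 1415904_at, 0.14 to 0.58, is the one that leaves out 0.

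The members varied between preparations within both genotypes. The SD of log2(intensity + 16) over the 12 arrays was 0.44 for Adipoq, 0.61 for Cidec, 0.56 for Pparg, 0.38 for Car3, 0.34 for Retn and 0.27 for Lpl 1415904_at, beside a median of 0.22 over all tested probe sets. Cidec stood above 97.1% of tested probe sets by this SD, Pparg above 96.3% and Adipoq above 92.1%. The brightest Fabp4 probe set had an SD of 0.09, above only 4.3% of tested probe sets, and Fabp4 1451263_a_at one of 0.215. The brightest ranked between 6 and 84 from the top of each array, and whether its signal was compressed there was not tested. In all, 10 of the 12 tested member probe sets had an SD above that median.

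Some of the members varied together with Adipoq and some did not. Over the 12 arrays, Car3 1449434_at followed Adipoq most closely of the members, with Pearson r = 0.897 (permutation p = 0.00018) and Spearman rho = 0.741 (permutation p = 0.00744). Retn gave r = 0.712 (permutation p = 0.00988) and rho = 0.720 (p = 0.0106), and Cidec r = 0.708 (permutation p = 0.0102) and rho = 0.643 (p = 0.0274). Lpl 1431056_a_at gave r = 0.725 (permutation p = 0.00639) but rho = 0.420 (p = 0.176). The brighter Lpl probe set, 1415904_at, gave r = 0.471 (permutation p = 0.12) and rho = 0.357 (p = 0.257). Adjusted over the 27021 probe sets compared with Adipoq, none of these passed 0.05, with an adjusted permutation p = 0.811 for Car3 and 1.0 for the others. Within genotypes the Car3 r was 0.979 in control and 0.833 in p190B, that of Retn 0.640 and 0.834, and that of Cidec 0.825 and 0.518 (n = 6 each, no p-value).

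Control replicates 6 and 5 lay farthest from the Adipoq median. Without both, r with Adipoq was 0.781 for Car3, 0.687 for Retn and 0.649 for Cidec. It was 0.395 for Lpl 1431056_a_at, 0.061 for Lpl 1415904_at and 0.117 for Pparg. The r of both Lpl probe sets and of Pparg with Adipoq depended in part on those arrays. They hold the lowest and the highest Adipoq value, so leaving them out narrows its range and can itself lower r. Pparg gave r = 0.534 over all arrays (permutation p = 0.0745, rho = 0.259), and the 4 Fabp4 probe sets gave r between 0.201 and 0.368 (permutation p from 0.241 to 0.529). Lep gave r = 0.297 on values too dim to test.

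The median r of the 7 other measured genes with Adipoq was 0.534, against 0.020 over all tested probe sets, and 0.322 without control replicate 6. It was 0.799 within control and 0.484 within p190B arrays. Of the 11 tested member probe sets other than Adipoq, 5 had an r above 0.7 with it, and 0.477% of all tested probe sets did.

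**Figure D3:**
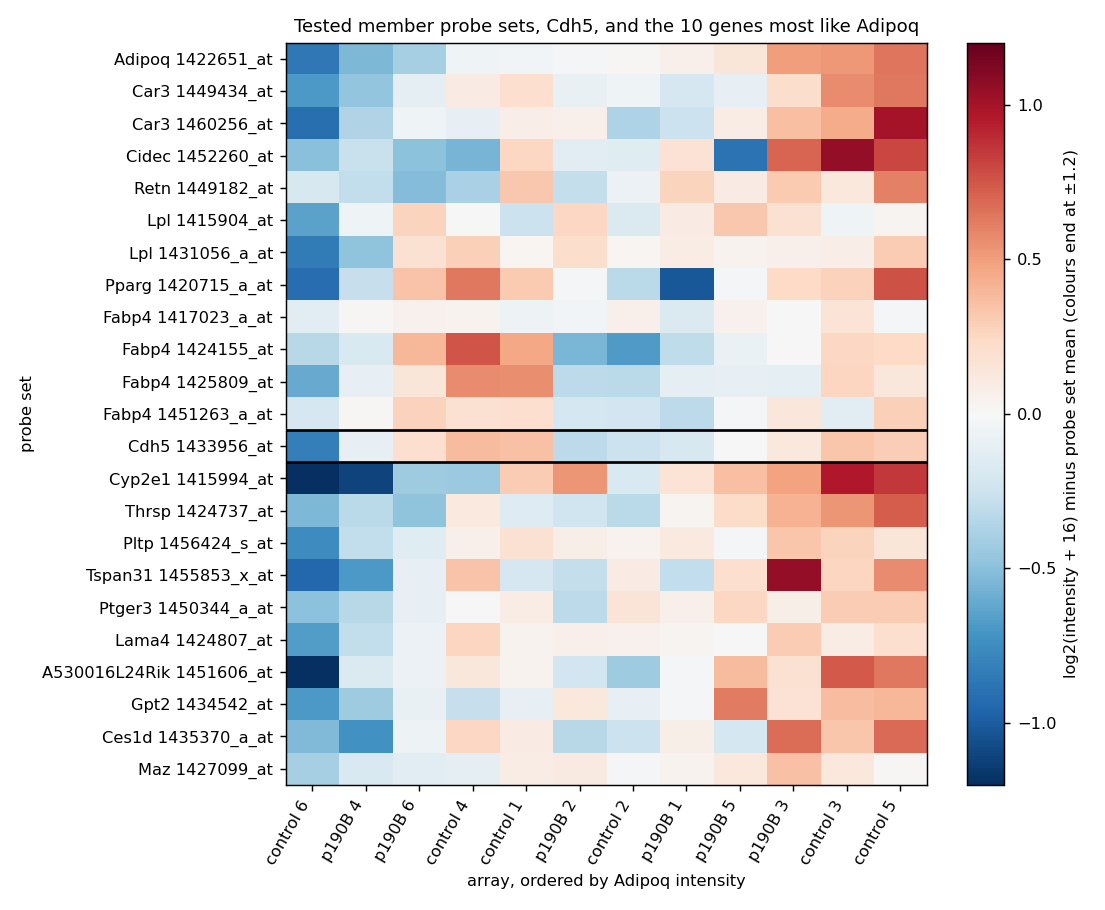
Log2(intensity + 16) minus each probe set's mean, for the tested member probe sets (top), Cdh5 (middle) and the 10 genes most like Adipoq (bottom), with arrays ordered by Adipoq intensity from left to right. Car3 is lowest and highest on the same arrays as Adipoq (r = 0.897), while Fabp4 1424155_at is highest on control replicates 4 and 1.

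Fabp4 and Pparg gave a higher r with an endothelial gene than with Adipoq. Cdh5, which encodes the vascular cadherin of endothelial junctions, was taken as a second reference after the values had been seen. Its probe set 1433956_at ran from 1668 to 3858 on control arrays and from 2372 to 3411 on p190B arrays. Fabp4 1425809_at followed it with r = 0.914 and rho = 0.965 over 12 arrays, both at a permutation p of 1e-05, the smallest that 100000 permutations can give. Adjusted over 27021 probe sets, the permutation p was 0.054 for both. Fabp4 1424155_at gave r = 0.811 (permutation p = 0.0012, adjusted 0.166) and rho = 0.951, and 1451263_a_at r = 0.723 (permutation p = 0.00647). The brightest and flattest Fabp4 probe set gave r = 0.544.

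Pparg gave r = 0.840 with Cdh5 (permutation p = 0.00051, adjusted 0.118) and rho = 0.853. Without control replicate 6 and p190B replicate 2, the 2 arrays farthest from the Cdh5 median, r was 0.881 for Fabp4 1425809_at and 0.867 for Pparg. Within genotypes, r with Cdh5 was 0.937 in control and 0.838 in p190B for this Fabp4 probe set, and 0.949 and 0.623 for Pparg. Over all 12 arrays, Retn and Cidec gave 0.268 and 0.392 with Cdh5. Lpl 1415904_at gave 0.432 and Lpl 1431056_a_at 0.707. Car3 1449434_at gave 0.791 with Cdh5 (permutation p = 0.00162), with 0.877 within control and 0.385 within p190B arrays. Adipoq and Cdh5 themselves gave r = 0.610 but rho = 0.266, with r = 0.788 within control and 0.049 within p190B arrays. Of the 12 tested member probe sets, 7 had an r above 0.7 with Cdh5, where 2.34% of all tested probe sets did; 9.69% had an r above 0.5 and 9.98% an unadjusted permutation p under 0.05. Whether a member's r with Adipoq differs from its r with Cdh5 was not tested.

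**Figure D4:**
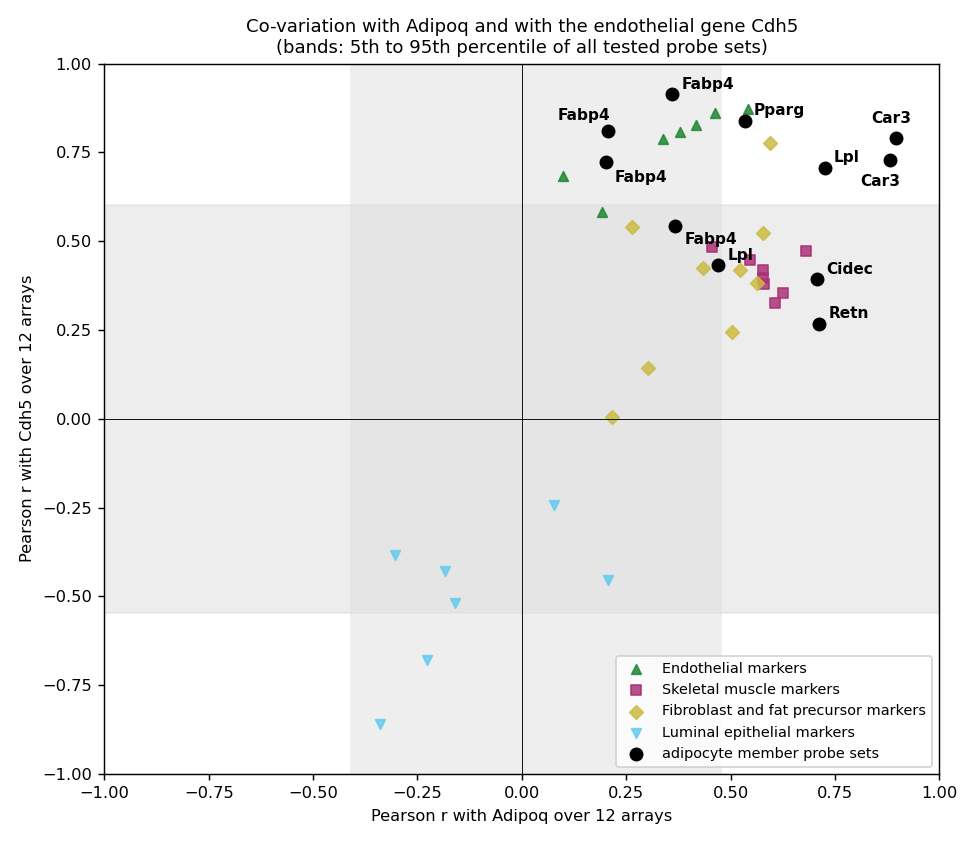
Pearson r over 12 arrays with Adipoq (horizontal) and with Cdh5 (vertical) for member probe sets (black) and markers of other cell types (coloured), with bands from the 5th to the 95th percentile of all tested probe sets. Retn and Cidec lie to the right (r with Adipoq 0.712 and 0.708), and 3 of the 4 Fabp4 probe sets lie near the endothelial markers at the top, with the brightest at r = 0.544 with Cdh5.

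The genes most like Adipoq by Pearson r, outside the members, included further fat cell genes. Cyp2e1, a cytochrome P450 of liver and fat, ranked first of 27021 probe sets at r = 0.924, and Thrsp, a regulator of lipid synthesis in fat and lactating mammary epithelium, ranked second at r = 0.909. Both had a permutation p of 1e-05, the smallest possible, and an adjusted p of 0.135. Cyp2e1 ran from 270.5 on control replicate 6 to 1531 on control replicate 3, and Thrsp from 1193 on control replicate 6 to 2889.8 on control replicate 5. Without control replicates 5 and 6, r was 0.860 for Cyp2e1 and 0.877 for Thrsp. The 2 bright Car3 probe sets ranked 3 and 5.

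Next came Pltp, the phospholipid transfer protein, at r = 0.881 and the basement membrane subunit Lama4 at 0.844. Ptger3, a prostaglandin E2 receptor, gave 0.847, Gpt2, the mitochondrial alanine aminotransferase, 0.836 and Ces1d, a carboxylesterase that hydrolyses stored lipid, 0.832. Tspan31 (0.855), A530016L24Rik (0.840) and Maz (0.828) completed the 10. Their permutation p ran from 7e-05 for Pltp to 0.00102 for Maz, and the adjusted p was 0.63 for Pltp and 1.0 for the rest. The 5 genes most opposite to Adipoq were Pkib (r = −0.866), H2-D1 (−0.823), Plekhm3 (−0.814), Psmf1 (−0.810) and Cp, which encodes ceruloplasmin (−0.805). Among the 12 arrays, control replicate 6, the array lowest for Adipoq, gave the highest value of Pkib, H2-D1, Plekhm3 and Cp.

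Other genes of the fat cell programme followed Adipoq only in part. Of 21 measured genes of lipid uptake and synthesis, 4 had r above 0.5 with Adipoq, where 4.09% of tested probe sets did, and the median r was 0.09. Beside Thrsp these included Pck1, an enzyme of glycerol synthesis in fat (r = 0.814, permutation p = 0.00147), and Agpat2, which acylates lysophosphatidic acid (r = 0.753, permutation p = 0.00475). Pck1 ran from 96.0 on control replicate 6 to 437.7 on p190B replicate 3. Of 10 genes of the lipid droplet and of lipolysis, 0 exceeded 0.5, and the highest was the droplet coat gene Plin4 at 0.432 (permutation p = 0.161). Without the 2 farthest arrays 2 of the 10 exceeded 0.5, Plin4 among them at 0.526.

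Adipogenic transcription factors gave a median r of 0.10 with Adipoq over 8 tested genes. The highest was Ebf1 (r = 0.630, permutation p = 0.0286), which was 0.244 without the 2 farthest arrays, and Cebpa, a partner of PPARγ in fat cells, gave 0.428, and 0.682 without those arrays. Of 10 secreted factors and receptors, 1 exceeded 0.5, the retinol carrier Rbp4 (r = 0.670, permutation p = 0.0165, and 0.274 without the 2 farthest arrays), and both adiponectin receptors stayed lower, with Adipor2 at 0.235. Of 8 tested further fat cell genes, 3 exceeded 0.5: Cyp2e1, the caveolar coat protein Cav1 (0.603) and the amine oxidase Aoc3 (0.506). Without the 2 farthest arrays, Cav1 gave 0.239 and Aoc3 0.350. After Benjamini-Hochberg adjustment over 27021 probe sets none of these correlations passed, and the same holds for the whole table, where 796 probe sets (2.95%) had an unadjusted permutation p under 0.05.

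Between genotypes, 0 of the genes in these 5 lists passed limma, and 2 had an unadjusted p under 0.05. These were 1 of 21 genes of lipid uptake and synthesis and 1 of 10 secreted factors and receptors, where 9.32% of all tested probe sets did. The median log2 difference was −0.03 over the lipid uptake and synthesis list, 0.03 over the lipid droplet list, −0.01 over the factors, 0.02 over the secreted factors and receptors and −0.04 over the further fat cell genes, against 0.02 over all tested probe sets. Acvr1c, Orm1, Hcar1 and Klf15 lay below the filter and were not tested.

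Brown fat genes were present at low signal and 3 of 8 varied with Adipoq by r above 0.5, where 4.09% of all tested probe sets did. Cox8b, a cytochrome oxidase subunit of brown fat and muscle, gave r = 0.828 (permutation p = 0.00113) and ran from 30.4 on control replicate 6 to 466.0 on control replicate 3. Ucp1, the uncoupling protein that defines brown fat, ran from 115.0 to 481.9 on control arrays and from 118.9 to 259.2 on p190B arrays, with r = 0.511 (permutation p = 0.0907) and 0.184 without the 2 farthest arrays. Cox7a1, the third gene above 0.5, gave r = 0.598 (permutation p = 0.04), and 0.654 without those arrays. Cidea, another brown fat gene picked out after its values were seen, gave r = 0.015, and 0.452 without those arrays.

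Markers of other cells moved with the adipocyte signal to different degrees. Over all tested probe sets the median r with Adipoq was 0.020, and 4.09% had an r above 0.5. All 8 skeletal muscle markers had a positive r with Adipoq and 7 of 8 exceeded 0.5, with a median of 0.58 and Acta1 highest at 0.682 (permutation p = 0.0139). Without control replicates 5 and 6, 0 of 8 exceeded 0.5, all 8 stayed positive, and Acta1 gave 0.418. Their mean log2(intensity + 16) ran from 8.14 to 10.30 on control arrays and from 8.03 to 10.41 on p190B arrays. All 8 endothelial markers had a positive r with Adipoq, with a median of 0.40, and their mean ran from 11.89 to 12.57 on control and from 12.03 to 12.56 on p190B arrays. Without control replicates 5 and 6, 5 of 8 were positive, with a median of 0.05. All 9 fibroblast and fat precursor markers were positive too, with a median of 0.50 and a mean from 12.42 to 13.06 on control and from 12.72 to 13.03 on p190B arrays. Without the same arrays 7 of 9 were positive, with a median of 0.23. Dlk1, which marks fat precursors and was picked out after its values were seen, gave 0.263, and −0.03 without those arrays. The part of these cells in the member signals was not tested.

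Epithelial and immune markers gave a different picture. The median r with Adipoq was −0.18 over 7 luminal genes, −0.06 over 8 basal genes, −0.06 over 8 macrophage genes and −0.35 over 7 lymphocyte genes, where 0 of 7 were positive. Without control replicates 5 and 6 these medians were −0.02, 0.10, 0.10 and −0.24. Macrophages are a known source of Fabp4 and Lpl; the mean of their markers ran from 12.22 to 12.88 on control and from 12.39 to 12.84 on p190B arrays. Between genotypes, 0 markers of any of these lists passed limma. An unadjusted limma p under 0.05 was reached by 4 of 7 luminal, 1 of 8 macrophage and 1 of 8 brown fat genes, and by 9.32% of all tested probe sets. The 4 luminal genes were Krt18, Krt19 and Elf5, higher in p190B by 0.16, 0.16 and 0.29 in log2, and Cdh1, lower at −0.48. The macrophage gene was Cd68, higher at 0.27 (limma adjusted p = 0.53). The brown fat gene was Elovl3, lower at −0.55 (limma adjusted p = 0.302), on values from 70.3 to 182.7, near the filter level.

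**Figure D5:**
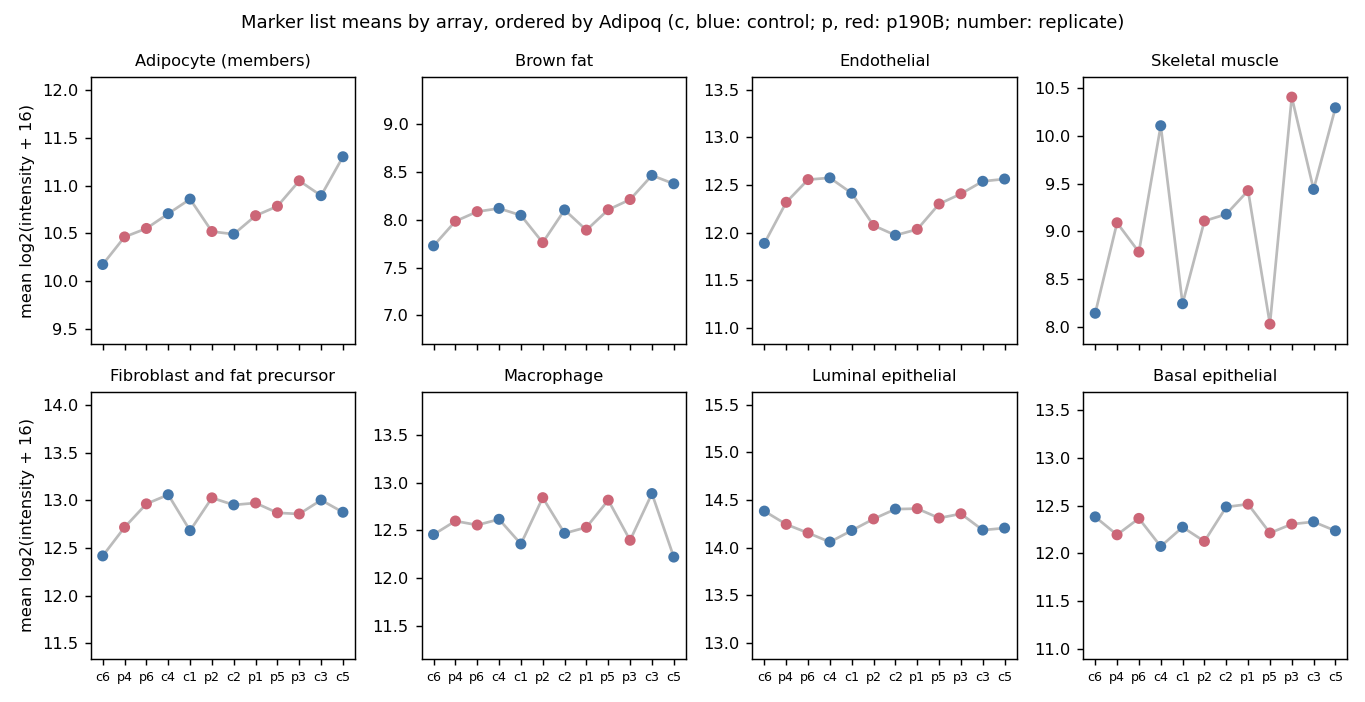
Mean log2(intensity + 16) of 8 marker lists on each array, ordered by Adipoq intensity, with an equal span on each vertical axis. The adipocyte mean, which holds Adipoq itself, is lowest at 10.17 on control replicate 6 and highest at 11.30 on control replicate 5, the skeletal muscle mean swings by 2.38 without following that order closely, and the luminal mean stays within 0.35.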

How the data were processed

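The study measured total RNA of 12 preparations on Affymetrix arrays. Deposited values are MAS5 intensity on a linear scale, per the submitters' processing notes, from 0.1 to 64224.3, and the mean of each array without its top and bottom 2% is 1000.0, so arrays were already scaled by the authors. Its version was not stated in the sources used here. Symbols came from the platform annotation, with 1 symbol for 34945 probe sets, several for 932 and none for 9160. The 64 control probe sets were left out. Values were taken as log2(intensity + 16). The filter kept probe sets with a mean log2 value at or above the 40th percentile, about 101 units (27022 tested).

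The genotype comparison used limma 3.58.1 under R 4.3.3 (eBayes with trend, two-sided, Benjamini-Hochberg over all tested probe sets, adjusted p under 0.05). Correlations used Python 3.11.15 with 100000 permutations, two-sided. Both were tested on simulated data. The brightest probe set stands for a gene unless another is named. Named genes were all member and Arhgap5 probe sets, the 3 genes of each pathway list with the highest r with Adipoq, and the 10 highest and 5 lowest genes of the table. The members and lists were chosen with earlier results of these data known. Cdh5 as a reference, the r levels of 0.5 and 0.7, and the fits with the Gapdh ratio or without p190B replicates 1 and 3 were chosen after seeing the data. The titles number replicates 1 to 6 in both genotypes, and the values did not show a pairing by these numbers. The number of arrays limits the precision. Alternatives were other scalings, filters, pseudocounts, array weights and leaving out each array.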

Additional observations from a re-analysis of the deposited data

Results flagged for a closer look

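Of 48 groups of 6 arrays examined for a single array far from the rest, 2 stood out. This is close to the share of about 1 in 20 that chance gives. Both concern Lpl 1431056_a_at. On the log2(intensity + 16) scale, control replicate 6 gave 11.443, while the other control arrays lay between 12.306 and 12.59. The p190B replicate 4 gave 11.795, while the other p190B arrays lay between 12.324 and 12.488. These are also the arrays with the lowest Adipoq and the lowest Car3 1449434_at signal of their genotypes.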

How the results depend on the processing

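The count of member probe sets past the limma threshold was 0 in all 23 alternatives, and 142 of 152 gene-by-setting differences kept their sign. Of the 10 that did not, 8 were of tested genes and 2 of Lep, which gave −0.028 without control replicate 3 and −0.068 without p190B replicates 1 and 3 against 0.187. Adipoq ran from −0.26 to 0.04 when 1 array was left out (0.015, 0.019 and 0.04 reversed), Fabp4 from −0.054 to 0.005, Fabp4 gave 0.009 without p190B replicates 1 and 3, and adjusting for the Gapdh ratio gave 0.052 for Fabp4 and 0.026 for Pparg. The count over the whole table moved more. Against 10 probe sets, it was 31 with quantile normalisation, 4 with equal medians, 5 without a filter, 17 with the filter at the 60th percentile, 3 without the trend and 19 with array weights. It was 5 without p190B replicates 1 and 3, 0 with the Gapdh ratio (1802 at unadjusted p under 0.05), and from 4 to 9 with 1 array left out. The cause was not tested. With the replicate number as a block 0 were called by limma (2287 at unadjusted p under 0.05). Same-numbered arrays correlated between −0.287 and 0.408 in their deviations, and 1 of 6 correlated best with its own number, so the numbers do not show a pairing. Among the members, dim signals limit Lep, Cidec and 2 Car3 probe sets.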
